A study of Homo sapiens with 22 samples.

Results

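The 10 genes described here encode the enzymes that write, copy and remove 5-methylcytosine in human DNA, with both isocitrate dehydrogenases that make a co-substrate of the removing enzymes. They were the rows of the deposited gene table named DNMT1, UHRF1, DNMT3A, DNMT3B, TET1, TET2, TET3, TDG, IDH1 and IDH2, selected by name, 10 of 60240 genes. All 10 passed the filter on low counts, which 20115 genes passed, and all had counts above 0 in each of the 22 libraries. RNA was measured in cultured haematopoietic progenitor cells. They were differentiated from H1, a long-established line of human embryonic stem cells. In the DOX arm doxycycline switched on ectopic MYC, a transcription factor that drives growth and division. DOX libraries were taken every other day, on days 12, 14, 16, 18 and 20. The UT arm, with no doxycycline and no ectopic MYC, was sampled on the same 5 days and also on day 10. Each of the 11 groups had 2 libraries, all carry the same batch label, and all titles share 1 prefix. The day on which doxycycline was added is not given in the sources used here. No group had doxycycline without the MYC gene, so effects of doxycycline and of MYC cannot be told apart. The labels do not say whether replicate libraries came from separate cultures, and a p-value here therefore sets a difference against library spread that may be no more than technical.

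DNMT3A and DNMT3B place methyl groups on cytosines of unmethylated CpG sites, and DNMT1, brought to newly copied DNA by UHRF1, restores the mark on the new strand after each round of replication. TET1, TET2 and TET3 oxidise 5-methylcytosine stepwise with 2-oxoglutarate and iron, and the glycosylase TDG cuts out the most oxidised forms for replacement by base excision repair. IDH1 in the cytosol and IDH2 in mitochondria make 2-oxoglutarate from isocitrate. DNMT3A, TET2, IDH1 and IDH2 are among the genes most often mutated in acute myeloid leukaemia, and DNMT3A and TET2 lead the list in clonal haematopoiesis.

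Library totals ran from 24730517 to 53508590 estimated counts. Levels below are CPM, counts scaled to a common library total after TMM normalisation, a scaling that takes most genes as unchanged between libraries. Genes of the mitochondrial genome took 9.02% to 58.8% of counts in DOX libraries and 9.95% to 72.9% in UT libraries of the same days, with group means of 57.0% in DOX and 72.7% in UT on day 20. The median log2 fold change of DOX over UT, averaged over days 12 to 20, was 0.08 over all genes after TMM scaling and 0.60 with library totals alone. MYC itself had 242 and 232 CPM on day 12, 164 and 183 on day 14, 133 and 84.4 on day 16, 66.2 and 56.1 on day 18 and 49.6 and 28.9 on day 20 in DOX libraries. UT libraries had MYC at 157 and 142 CPM on day 10, 126 and 121 on day 12, 88.7 and 58.0 on day 14, 59.8 and 46.8 on day 16, 45.0 and 33.2 on day 18 and 34.6 and 28.7 on day 20. Both DOX libraries were above both UT libraries on days 12 to 18, the arms overlapped on day 20, and the counts do not separate ectopic from endogenous transcripts (averaged log2 fold change 0.83, SE 0.11, adjusted p = 4.3e-06). By single days, edgeR called MYC higher on days 12, 14 and 16. It did not call MYC on day 18 (0.65, adjusted p = 0.0505) or day 20 (0.31, adjusted p = 0.39). Ranges of single marker genes below take in UT day 10, a day that DOX lacks, so the arms differ in the days covered. Of the progenitor markers, CD34 ranged from 5.09 to 84.8 CPM in DOX and from 1.98 to 111 CPM in UT libraries, and PTPRC from 14.6 to 42.9 CPM and from 13.3 to 51.2 CPM in the same arms. Of 8 markers of pluripotent cells, POU5F1, NANOG, SOX2 and TDGF1 were under 1 CPM in every library, and LIN28A (2.70 to 114 CPM in DOX and 0.0855 to 180.0 CPM in UT), DPPA4 (7.88 to 18.8 CPM and 7.46 to 28.5 CPM in the same arms), SALL4 (13.5 to 19.4 CPM and 12.4 to 25.1 CPM) and ZFP42 (0.840 to 6.37 CPM and 0 to 6.66 CPM) were not. Of the 5 tested, 2 were called higher in DOX and the median log2 fold change was 1.69. Markers of other blood cells moved with the arms in the averaged comparison: all 8 granulocyte genes were lower in DOX (summed levels 722 to 2113 CPM in DOX and 1216 to 4069 CPM in UT libraries). Ranges of summed levels in this and the next 2 results are for days 12 to 20. On UT day 10 the granulocyte sums were 482 and 664 CPM. All 6 mast cell, basophil and eosinophil genes were lower too (249.7 to 11559 CPM in DOX and 774 to 33109.9 CPM in UT, with 30.4 and 31.4 CPM on UT day 10). Of 8 erythroid genes 7 were higher and 1 lower (329.5 to 1700.5 CPM summed in DOX and 86.5 to 1889 CPM in UT). Of 6 monocyte and macrophage genes 5 were lower, of 6 endothelial genes 5 were higher, and of 8 progenitor genes 4 were lower and 1 higher. Summed levels of 6 fibroblast genes were 515 CPM in UT day 16 replicate 2, against 17.0 CPM in replicate 1 and at most 43.8 CPM in the other libraries, so that this library stands apart. Without it 8 of the 10 genes described here were called in the average and 2, TET1 and TET3, on day 16 in place of 8. Markers also moved over time. Mean sums of the mast cell, basophil and eosinophil genes were 281 CPM on DOX day 12 and 11151 on DOX day 20. In UT they were 30.9 on day 10, 30240 on day 18 and 22373 on day 20. Mean sums of the 8 progenitor genes were 1083 and 930 CPM on DOX days 12 and 20, and 1088 and 1323 on UT days 10 and 20. No marker gene was at 0 in every library, and the part of all these cell types in the results below was not tested.

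Promoter sequence was looked at for the E-box CACGTG, a palindrome that reads alike on both strands and is the site to which MYC with its partner MAX is best known to bind. All 10 genes had at least 1 RefSeq start site in the table used (GRCh38.p14), each with a window of 300 bases, 250 before and 50 after the start, for 22 windows in all. CACGTG was present in windows of TET2, TET3, DNMT3A and TDG, 4 of 10 genes and 5 of 22 windows (22.7%), against 8.77% of the 27305 genes and 7.26% of the 35116 windows in the table. The 10 genes had more windows per gene than the table, and a higher median GC content (68.2% against 58.7%). The shares were not adjusted for either. A match is a description of the sequence and not of binding, and members with and without it are told apart below only by their values. The windows that hold it are shown 5′ to 3′ on the strand of the gene with CACGTG in capitals. The TET2 window lies at chr4:105145625-105145924, plus strand, with the first base of the motif 14 bases before the start site. The TET3 window lies at chr2:73984660-73984959, plus strand, with motifs 67 and 27 bases before the start. The DNMT3A window lies at chr2:25252214-25252513, minus strand, with the motif 127 bases before the start. The TDG window lies at chr12:103965622-103965921, plus strand, with the motif 80 bases before the start. The DNMT3A start is one of 6 in the table and lies inside the gene, and the same motif falls 75 bases before another of them.
TET2: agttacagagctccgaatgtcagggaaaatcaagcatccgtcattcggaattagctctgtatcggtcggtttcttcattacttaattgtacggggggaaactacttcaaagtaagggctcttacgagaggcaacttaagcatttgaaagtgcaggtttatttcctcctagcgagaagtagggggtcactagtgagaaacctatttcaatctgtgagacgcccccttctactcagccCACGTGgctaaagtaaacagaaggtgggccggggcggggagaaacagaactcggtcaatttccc
TET3: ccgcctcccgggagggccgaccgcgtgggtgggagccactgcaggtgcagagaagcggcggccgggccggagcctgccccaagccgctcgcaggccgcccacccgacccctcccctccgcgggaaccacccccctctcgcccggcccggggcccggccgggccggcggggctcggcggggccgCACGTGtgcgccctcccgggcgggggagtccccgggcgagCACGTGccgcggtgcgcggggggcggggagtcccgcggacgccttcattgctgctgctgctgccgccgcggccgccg
DNMT3A: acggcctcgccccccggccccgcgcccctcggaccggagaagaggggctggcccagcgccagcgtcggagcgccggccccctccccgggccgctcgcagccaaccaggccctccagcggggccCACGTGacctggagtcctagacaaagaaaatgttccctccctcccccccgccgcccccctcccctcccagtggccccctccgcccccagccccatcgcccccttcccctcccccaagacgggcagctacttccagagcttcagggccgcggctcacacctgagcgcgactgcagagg
TDG: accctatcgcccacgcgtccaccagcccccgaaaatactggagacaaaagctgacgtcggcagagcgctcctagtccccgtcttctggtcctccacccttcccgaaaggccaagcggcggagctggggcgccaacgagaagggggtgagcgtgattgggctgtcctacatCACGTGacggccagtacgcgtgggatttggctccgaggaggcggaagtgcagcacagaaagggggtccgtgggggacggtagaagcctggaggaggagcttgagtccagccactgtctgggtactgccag
The windows of DNMT3B, TET1, DNMT1, UHRF1, IDH1 and IDH2 held no CACGTG. All windows of DNMT1, DNMT3B, UHRF1, IDH1 and IDH2 have their start site inside the GENCODE gene, so they do not cover the annotated 5′ ends. CpG sites, the targets of these enzymes, numbered 3 to 46 per window over the 10 genes, with a median of 24 against 14 over all windows.

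Levels of different genes can be set against each other only per length, here as CPM per kilobase of merged exons averaged over days 12 to 20 of each arm. On this scale IDH2 was the most abundant member (40.9 in DOX and 38.9 in UT), and IDH1 stood at 17.5 in DOX and 15.6 in UT. Among the methyltransferases, DNMT3B stood at 14.2 in DOX and 9.26 in UT, DNMT1 at 10.4 in DOX and 18.1 in UT, and DNMT3A lower at 5.13 in DOX and 4.26 in UT. By day, DNMT1 means were below DNMT3B means on DOX days 12 to 18 and UT days 10 to 14, and above them on DOX day 20 and UT days 16 to 20. UHRF1 stood at 7.25 in DOX and 6.42 in UT and TDG at 14.1 in DOX and 16.3 in UT CPM per kilobase. The TET genes were the least abundant members, with TET3 at 3.03 in DOX and 2.22 in UT, TET2 at 1.11 in DOX and 1.45 in UT and TET1 at 0.321 in DOX and 0.124 in UT. TET1 rested on 7 to 421 counts per library, and its values are the least precise of the 10.

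Averaged over the 5 shared days with equal weight, 9 of the 10 genes passed the test between DOX and UT, 6 higher and 3 lower, at an adjusted p under 0.05 (edgeR quasi-likelihood test, Benjamini-Hochberg over 20115 genes, 10 libraries an arm). The background was high: 52.9% of all genes were called in this comparison, 29.8% higher and 23% lower. In comparisons of DOX with UT, here and below, a rise or fall means higher or lower in DOX than in UT. It does not mean a change over time. TET1 rose by 1.34 on the log2 scale (2.54-fold, SE 0.19, adjusted p = 1.1e-05). DNMT3B rose by 0.72 (SE 0.05, adjusted p = 3.4e-09) and TET3 by 0.56 (SE 0.11, adjusted p = 0.00029). Smaller rises were called for DNMT3A, UHRF1 and IDH1. DNMT1, TET2 and TDG were lower in DOX than in UT, and IDH2 was not called (log2 fold change 0.05, SE 0.05, adjusted p = 0.41). The median log2 fold change was 0.20 over the 10 genes and 0.08 over all genes tested.

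**Figure D1:**
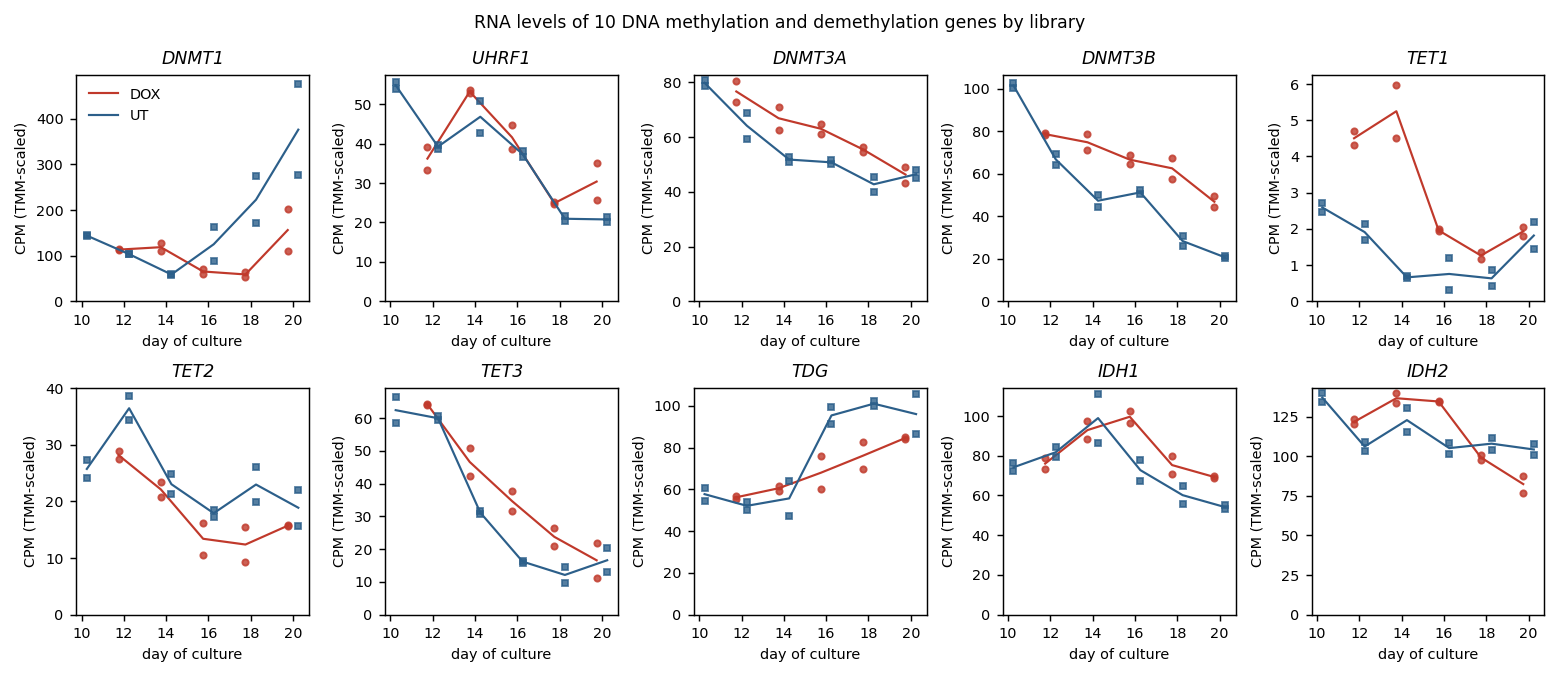
TMM-scaled CPM (y axes, linear, from 0) of the 10 genes against day of culture, with each point a library, DOX in red circles and UT in blue squares, and lines joining the means of 2 libraries. DNMT3B lies higher in DOX on every shared day, DNMT1 crosses over between days 14 and 16, and TET1 is highest in DOX on days 12 and 14.

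With library totals alone the same 10 genes gave 8 higher and 0 lower calls, and all genes 11581 higher and 1609 lower in place of 6002 and 4633. TET2 then stood at 0.13 and TDG at 0.36, both turned in sign, DNMT1 at -0.07 without a call, and the uncalled IDH2 at 0.59 with one. On days 12 and 14 alone, when the mitochondrial shares of the arms were closest, TET1, DNMT3A and DNMT3B were called, all higher, against 25.1% of all genes, 14.2% higher and 10.8% lower (2.11, 0.31 and 0.45 on the log2 scale). DNMT1 was then higher at 0.57, without a call. TET1, DNMT3A and DNMT3B kept their call and direction in all 29 alternatives run for the averaged comparison.

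**Figure D2:**
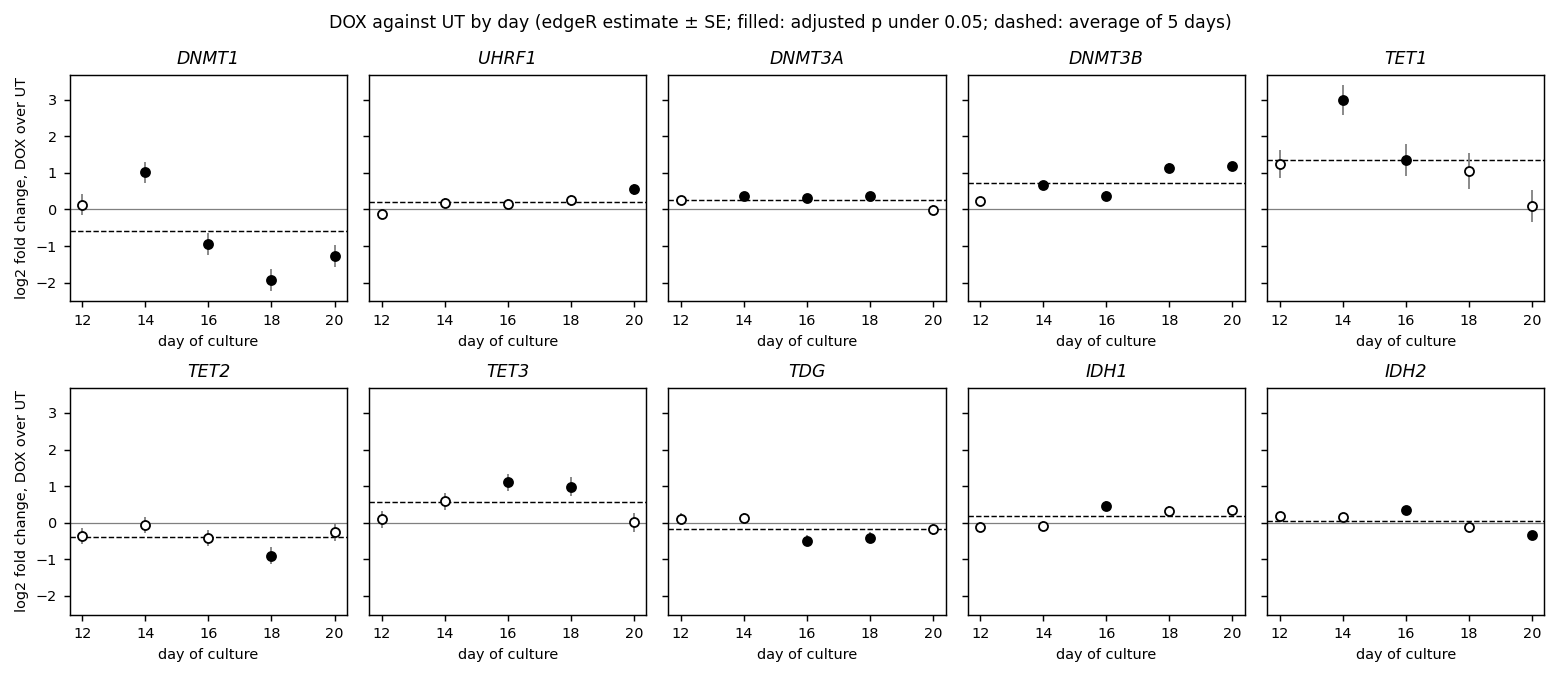
Log2 fold change of DOX over UT (y axis) of each gene on days 12 to 20 (x axis), as the edgeR estimate with its SE, filled where the adjusted p is under 0.05; the dashed line is the average of the 5 days. DNMT1 is above 0 on day 14 and near -1.9 on day 18, DNMT3B stays above 0 and is above 1 on days 18 and 20, and TET1 peaks near 3 on day 14.

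Single days gave fewer calls. On day 12 edgeR called none of the 10 genes (2 had an unadjusted p under 0.05, and DESeq2 called 1, TET1) with 3.11% of all genes called, 0.845% higher and 2.26% lower. On day 14 it called 4, all higher, against 27% of all genes (15.3% higher and 11.7% lower). Day 16 gave 6 higher and 2 lower against 39.9% (21.2% higher and 18.7% lower). Day 18 gave 3 higher and 3 lower against 35.8% (19.8% higher and 16% lower). Day 20 gave 2 higher and 2 lower against 27.8% (15.9% higher and 11.9% lower). Both DOX libraries lay outside the range of both UT libraries for all but 1 gene (UHRF1) on day 12, a separation that 61.7% of all genes had on that day. Separation held for 7 members on day 14 (68.5% of all genes), all 10 on day 16 (71%), all 10 on day 18 (62.5%) and 6 on day 20 (51.4%). Whether the DOX against UT difference itself changed among the 5 days was tested with 4 degrees of freedom, and TET1, DNMT1, DNMT3B, IDH1 and IDH2 were called, 5 of 10 against 31.4% of all genes. TET3 fell just short in edgeR (adjusted p = 0.0505). It was called with DESeq2 (adjusted p = 0.012), and in edgeR without a filter (2.0e-05) or without mitochondrial genes (0.0499). Between day 12 and day 20 alone, the change was called for DNMT1 and IDH2 (downwards) and for DNMT3B and UHRF1 (upwards), 4 of 10 against 8.96% (5.62% upwards and 3.34% downwards).

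DNMT1, the maintenance methyltransferase (ENSG00000130816.17, chromosome 19, 10133345 to 10231286, minus strand of GRCh38 in GENCODE 29), stood at 114 and 112 CPM on day 12, 110.1 and 127 on day 14, 69.8 and 60.8 on day 16, 52.5 and 65.1 on day 18 and 109 and 203 on day 20 in DOX libraries. UT libraries had DNMT1 at 143 and 145 CPM on day 10, 103 and 104 on day 12, 60.0 and 57.4 on day 14, 88.1 and 162 on day 16, 171 and 275 on day 18 and 277 and 476 on day 20. DOX was thus higher on days 12 and 14 and lower on days 16, 18 and 20, with no overlap between the libraries of the arms on any day. The fall in DOX averaged -0.60 on the log2 scale (SE 0.13, adjusted p = 0.00084). It was made up of a rise on day 14 (log2 fold change 1.01, SE 0.29, adjusted p = 0.015) and later falls. These were called on day 16 (-0.94, adjusted p = 0.017), day 18 (-1.92, adjusted p = 8.4e-05) and day 20 (-1.27, adjusted p = 0.0038). On day 18 this was a 3.79-fold difference, the largest of the 10 genes towards lower levels on any day. In bulk RNA, fewer cells of a type and less RNA per cell cannot be told apart, here and in all results below.

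Over time, DNMT1 was 2.61-fold higher on UT day 20 than on UT day 10 (log2 fold change 1.39, SE 0.30, adjusted p = 0.00051). DOX day 20 against DOX day 12 was not called (0.46, adjusted p = 0.19). DNMT1 group means were highest on UT day 20 and lowest on UT day 14 (6.41-fold apart). In that order, DNMT1 libraries overlapped in 7 of 10 neighbouring pairs. Gaps for DNMT1 stood between UT day 20 and UT day 18, DOX day 12 and UT day 12 and between UT day 12 and DOX day 16. The spread between replicates was wide from UT day 16 on, and replicate 2 was the higher library in each of UT day 16, 18 and 20 and DOX day 20. The UT libraries of those days also held mitochondrial shares of 53.5% to 72.9%, and the part of that share in the DNMT1 levels was not tested. Without mitochondrial genes in the scaling the averaged fold change was -0.59. On the scale of library totals alone, DNMT1 was lower on UT day 20 than on UT day 10 (-0.82). Under library totals alone the DNMT1 falls of day 16 (-0.01) and day 20 (-0.37) were not called. UT day 16 replicate 2, the library with the fibroblast genes, held 162 CPM of DNMT1 against 88.1 CPM in replicate 1, and their part in it was not tested. The day-14 call was lost without DOX replicate 2, UT replicate 1 or UT replicate 2 (0.92 to 1.06 on the log2 scale), and for DNMT1 on day 16 the same held without DOX replicate 1, DOX replicate 2 or UT replicate 2 (-1.03 to -0.42). The day-20 call was lost without DOX replicate 1 or UT replicate 2 (-0.88 to -0.82). The day-18 call held without each of its 4 libraries (-2.22 to -1.52). DNMT1 shares 83 exonic bases with S1PR2 on the same strand, whose 1704 counts over all libraries stand against 107364 for DNMT1.

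UHRF1, which reads hemimethylated CpG sites and recruits DNMT1 (ENSG00000276043.5, chromosome 19, 4903080 to 4962154, plus strand), had 39.1 and 33.3 CPM on day 12, 53.7 and 52.8 on day 14, 44.7 and 38.6 on day 16, 25.2 and 24.6 on day 18 and 35.2 and 25.6 on day 20 in DOX libraries. UT libraries had UHRF1 at 55.8 and 53.9 CPM on day 10, 39.8 and 38.7 on day 12, 50.9 and 42.8 on day 14, 38.1 and 36.6 on day 16, 21.5 and 20.4 on day 18 and 20.1 and 21.5 on day 20. Levels in both arms were lower on days 18 and 20 than on day 14, the arms overlapped on day 12, and on the 4 later days both DOX libraries were higher. The averaged rise was small (log2 fold change 0.21, SE 0.06, adjusted p = 0.010), and day 20 was the only single day called (0.55, adjusted p = 0.0099). That call was lost without DOX replicate 1 or UT replicate 1 (0.31 to 0.51) and with only the groups compared (adjusted p = 0.18). On days 12 and 14 alone the average was 0.03, without a call. UT day 20 was 2.64-fold lower than UT day 10 (-1.40, adjusted p = 1.4e-07), and DOX day 20 against DOX day 12 was not called (-0.25, adjusted p = 0.13). UHRF1 group means were highest on UT day 10 and lowest on UT day 20 (2.64-fold apart). In that order, UHRF1 libraries overlapped in 5 of 10 neighbouring pairs. Gaps for UHRF1 stood between UT day 10 and DOX day 14, DOX day 14 and UT day 14, UT day 12 and UT day 16, DOX day 20 and DOX day 18 and between DOX day 18 and UT day 18. Summed levels of 10 cycling-cell genes, 9 of them called higher in DOX, ranged from 615 to 1574 CPM in DOX and from 544 to 967 CPM in UT libraries of days 12 to 20. UHRF1 is itself known to be made mostly in dividing cells, and the part of the cell cycle in its level was not tested.

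DNMT3A, a de novo methyltransferase needed for haematopoietic stem cells to differentiate in mice (ENSG00000119772.17, chromosome 2, 25227855 to 25342590, minus strand), had 72.9 and 80.4 CPM on day 12, 62.7 and 71.1 on day 14, 64.9 and 61.1 on day 16, 54.6 and 56.3 on day 18 and 49.2 and 43.4 on day 20 in DOX libraries. UT libraries had DNMT3A at 80.8 and 78.8 CPM on day 10, 59.4 and 68.8 on day 12, 52.5 and 51.0 on day 14, 50.1 and 51.4 on day 16, 40.0 and 45.4 on day 18 and 44.9 and 47.9 on day 20. Levels in both arms were lower on day 20 than on the first day sampled, DOX lay higher without overlap on days 12 to 18, and on day 20 the arms overlapped. The averaged rise in DOX was 0.26 (SE 0.05, adjusted p = 0.00030). There were calls on day 14 (0.37, adjusted p = 0.021), day 16 (0.31, adjusted p = 0.037) and day 18 (0.37, adjusted p = 0.018). The calls were lost on day 14 without DOX replicate 2, UT replicate 1 or UT replicate 2 (0.29 to 0.40) and on day 16 without DOX replicate 1, DOX replicate 2, UT replicate 1 or UT replicate 2 (0.28 to 0.37). On day 18 the DNMT3A call was lost without DOX replicate 2 or UT replicate 1 (0.29 to 0.36), and all 3 calls were lost without a filter (adjusted p = 0.061, 0.11 and 0.067) or with only the groups compared (0.081, 0.086 and 0.12). UT day 20 was lower than UT day 10 (-0.78, adjusted p = 1.2e-05), and DOX day 20 lower than DOX day 12 (-0.73, adjusted p = 2.9e-05). DNMT3A group means were highest on UT day 10 and lowest on UT day 18 (1.87-fold apart). In that order, DNMT3A libraries overlapped in 6 of 10 neighbouring pairs. Gaps for DNMT3A stood between DOX day 12 and DOX day 14, DOX day 16 and DOX day 18, DOX day 18 and UT day 14 and between UT day 16 and UT day 20.

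DNMT3B, the de novo methyltransferase best known from embryonic stem cells and the early embryo (ENSG00000088305.18, chromosome 20, 32762385 to 32809356, plus strand), had 78.2 and 79.2 CPM on day 12, 71.1 and 78.6 on day 14, 68.8 and 64.5 on day 16, 57.7 and 67.5 on day 18 and 49.4 and 44.3 on day 20 in DOX libraries. UT libraries had DNMT3B at 101 and 103 CPM on day 10, 64.4 and 69.3 on day 12, 50.2 and 44.4 on day 14, 52.2 and 50.3 on day 16, 25.8 and 30.9 on day 18 and 20.2 and 21.2 on day 20. It was lower on day 20 than on the first day sampled in both arms, and both DOX libraries were above both UT libraries on all 5 days. The averaged rise was 1.65-fold (log2 fold change 0.72, SE 0.05, adjusted p = 3.4e-09). The log2 fold change was 0.24 on day 12 without a call (adjusted p = 0.37). The later days were all called, with 0.66 on day 14 (adjusted p = 0.00041) and 0.38 on day 16 (adjusted p = 0.016). The fold changes were largest late, 1.14 on day 18 (adjusted p = 1.4e-06) and 1.18 on day 20 (adjusted p = 3.0e-06). The widening from day 12 to day 20 was called (log2 fold change 0.94, SE 0.17, adjusted p = 0.0018) and stayed called in all 16 alternatives. Only the day-16 call was lost without a library, DOX replicate 1 or UT replicate 2 (0.35 to 0.36).

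In UT, DNMT3B was 4.91-fold lower on day 20 than on day 10 (log2 fold change -2.29, SE 0.13, adjusted p = 4.0e-11), the largest change of the 10 genes over the UT course. In DOX it was 1.68-fold lower on day 20 than on day 12 (-0.75, adjusted p = 3.0e-05). DNMT3B group means were highest on UT day 10 and lowest on UT day 20 (4.91-fold apart). In that order, DNMT3B libraries overlapped in 4 of 10 neighbouring pairs. Gaps for DNMT3B stood between UT day 10 and DOX day 12, DOX day 14 and UT day 12, DOX day 18 and UT day 16, UT day 16 and UT day 14, DOX day 20 and UT day 18 and between UT day 18 and UT day 20. UT libraries with a mitochondrial share over 60% held the lowest DNMT3B levels, 20.2 to 25.8 CPM. At shares of 53.5% to 58.8%, DOX day 20 held 49.4 and 44.3 CPM, UT day 16 held 52.2 and 50.3 CPM, and UT day 18 replicate 2 held 30.9 CPM. The part of that share was not tested. Summed levels of 8 pluripotency markers were 27.6 to 158 CPM in DOX, 22.7 to 127 CPM in UT libraries of days 12 to 20, and 201 and 235 CPM on UT day 10. Their part in the DNMT3B levels was not tested either.

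**Figure D3:**
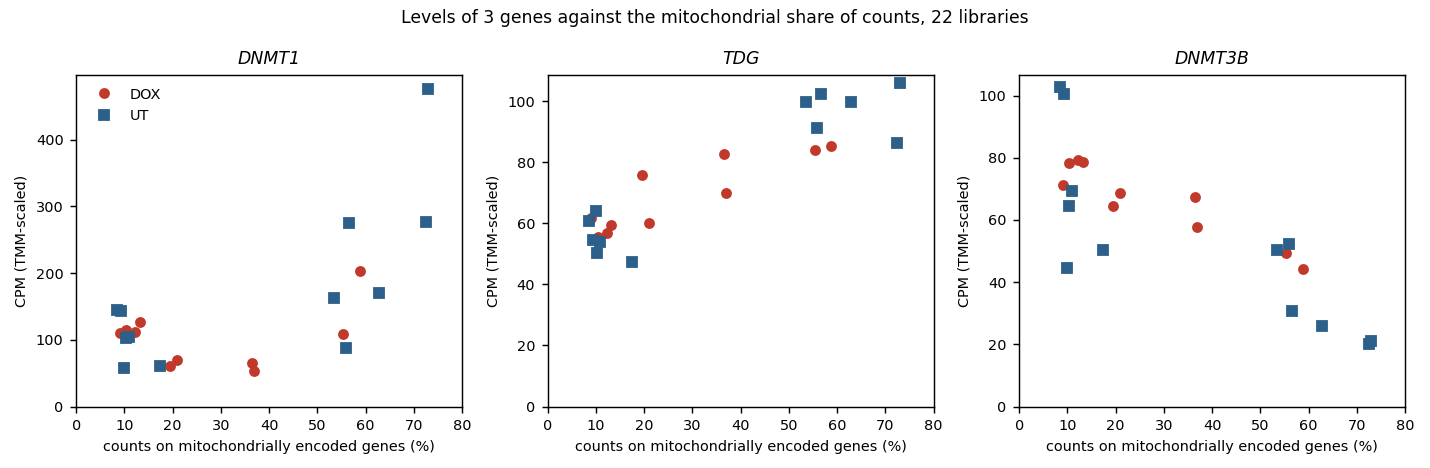
CPM of DNMT1, TDG and DNMT3B (y axes, from 0) against the share of counts on mitochondrially encoded genes in percent (x axis) in the 22 libraries, DOX in red circles and UT in blue squares. Among UT libraries with shares above 50%, TDG lies at 86.4 to 106 CPM, above every other library, DNMT3B at 20.2 to 52.2 CPM and DNMT1 at 88.1 to 476 CPM.

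TET1, the TET enzyme most abundant in pluripotent cells (ENSG00000138336.9, chromosome 10, 68560656 to 68694482, plus strand), had 4.31 and 4.70 CPM on day 12, 4.52 and 5.98 on day 14, 1.93 and 1.99 on day 16, 1.36 and 1.16 on day 18 and 1.81 and 2.05 on day 20 in DOX libraries. UT libraries had TET1 at 2.48 and 2.70 CPM on day 10, 1.68 and 2.14 on day 12, 0.635 and 0.684 on day 14, 0.310 and 1.2 on day 16, 0.855 and 0.408 on day 18 and 2.18 and 1.45 on day 20. DOX was higher without overlap on days 12, 14, 16 and 18, and the arms overlapped on day 20. Day 14 held the largest difference of any member on any day, 7.93-fold (log2 fold change 2.99, SE 0.42, adjusted p = 4.7e-05), and it rested on 307 and 421 counts in DOX against 38 and 41 in UT. Day 16 was also called (1.35, adjusted p = 0.019), but not without DOX replicate 1, DOX replicate 2 or UT replicate 1 (0.72 to 1.39) or with only the groups compared (adjusted p = 0.072). Without UT day 16 replicate 2, whose 1.2 CPM stand against 0.310 CPM in replicate 1, the TET1 value of day 16 was 2.66. Days 12, 18 and 20 were not called, with log2 fold changes of 1.23 (adjusted p = 0.10), 1.05 (adjusted p = 0.10) and 0.10 (adjusted p = 0.93).

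Over time, TET1 was lower on DOX day 20 than on DOX day 12 (log2 fold change -1.22, SE 0.40, adjusted p = 0.015), a call lost without DOX day 12 replicate 2 or DOX day 20 replicate 1 (-1.19 to -1.16). UT day 20 against UT day 10 was not called (-0.52, adjusted p = 0.30), and TET1 CPM in UT was low on days 14 to 18 and higher on day 20 in both libraries. UT day 20 rested on 22 and 17 counts, fewer than the 38 and 41 of UT day 14. Its higher level than on day 14 thus depends on the TMM scaling. With library totals alone the UT course of TET1 was called (-2.69). TET1 group means were highest on DOX day 14 and lowest on UT day 18 (8.31-fold apart). In that order, TET1 libraries overlapped in 7 of 10 neighbouring pairs. Gaps for TET1 stood between DOX day 12 and UT day 10, UT day 10 and DOX day 16 and between UT day 20 and DOX day 18. The change of the difference among days was called (adjusted p = 0.014), though not without UT day 14 replicate 1 (adjusted p = 0.056) or DOX day 14 replicate 2 (adjusted p = 0.071). The pseudogene TET1P1 held 14 counts over all libraries, against 2433 for TET1.

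TET2, the TET enzyme whose loss in mice expands haematopoietic stem cells (ENSG00000168769.14, chromosome 4, 105145875 to 105279816, plus strand), had 27.6 and 28.9 CPM on day 12, 20.8 and 23.5 on day 14, 16.3 and 10.5 on day 16, 15.4 and 9.34 on day 18 and 15.8 and 15.6 on day 20 in DOX libraries. UT libraries had TET2 at 27.3 and 24.2 CPM on day 10, 38.6 and 34.3 on day 12, 24.8 and 21.3 on day 14, 18.5 and 17.3 on day 16, 26.0 and 20.0 on day 18 and 22.1 and 15.7 on day 20. It was lower in DOX without overlap on days 12, 16 and 18, and the arms overlapped on days 14 and 20. The averaged fall was -0.40 (SE 0.10, adjusted p = 0.0025). Day 18 was the only single day called for TET2 (log2 fold change -0.89, SE 0.23, adjusted p = 0.0055), a call lost without DOX replicate 2 or UT replicate 1 (-0.69 to -0.56). As given above, the fall turned to 0.13 with library totals alone. DOX day 20 was lower than DOX day 12 (-0.84, adjusted p = 0.0039), and UT day 20 against UT day 10 was not called (-0.45, adjusted p = 0.096; called without UT day 20 replicate 1, -0.74). TET2 group means were highest on UT day 12 and lowest on DOX day 18 (2.95-fold apart). In that order, TET2 libraries overlapped in 7 of 10 neighbouring pairs. Gaps for TET2 stood between UT day 12 and DOX day 12, DOX day 12 and UT day 10 and between UT day 16 and DOX day 20.

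TET3, the TET enzyme of the zygote, which is also widely present in blood cells (ENSG00000187605.15, chromosome 2, 73986404 to 74108176, plus strand), had 64.4 and 64.1 CPM on day 12, 42.3 and 51.0 on day 14, 37.8 and 31.6 on day 16, 26.5 and 21.0 on day 18 and 22.0 and 11.2 on day 20 in DOX libraries. UT libraries had TET3 at 66.5 and 58.5 CPM on day 10, 60.7 and 59.3 on day 12, 31.6 and 30.7 on day 14, 16.5 and 15.9 on day 16, 14.5 and 9.75 on day 18 and 20.3 and 12.9 on day 20. It was lower on day 20 than on the first day sampled in both arms, DOX was higher without overlap on days 12, 14, 16 and 18, and on day 20 the 2 libraries of DOX lay on either side of both UT libraries. The averaged rise was 0.56 (SE 0.11, adjusted p = 0.00029). TET3 was called on day 16 (log2 fold change 1.10, SE 0.24, adjusted p = 0.0014) and day 18 (0.99, adjusted p = 0.0054), the second lost without UT replicate 2 (0.73). Day 14 was not called (0.58, adjusted p = 0.073). It was called in edgeR without a filter (adjusted p = 0.0023), with only the groups compared (0.018) and with a replicate block (0.027). On day 20 the value was 0.01 and its sign depended on which library was left out (-0.56 to 0.42). The fall over time was -1.95 for DOX day 20 over DOX day 12 (SE 0.25, adjusted p = 2.1e-06). It was -1.92 for UT day 20 over UT day 10 (SE 0.25, adjusted p = 2.7e-06). TET3 group means were highest on DOX day 12 and lowest on UT day 18 (5.31-fold apart). In that order, TET3 libraries overlapped in 4 of 10 neighbouring pairs. Gaps for TET3 stood between UT day 12 and DOX day 14, DOX day 14 and DOX day 16, DOX day 16 and UT day 14, UT day 14 and DOX day 18, DOX day 18 and UT day 20 and between UT day 16 and UT day 18.

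TDG, the thymine DNA glycosylase that excises formyl- and carboxylcytosine (ENSG00000139372.15, chromosome 12, 103965804 to 103988874, plus strand), had 55.6 and 56.9 CPM on day 12, 61.7 and 59.4 on day 14, 60.1 and 75.9 on day 16, 69.9 and 82.6 on day 18 and 84.1 and 85.3 on day 20 in DOX libraries. UT libraries had TDG at 54.5 and 60.9 CPM on day 10, 50.3 and 54.0 on day 12, 47.4 and 63.9 on day 14, 91.4 and 99.6 on day 16, 99.8 and 102 on day 18 and 86.4 and 106 on day 20. It was higher in DOX on day 12, overlapped on day 14, and was lower without overlap on days 16, 18 and 20. The calls were day 16 (log2 fold change -0.49, SE 0.15, adjusted p = 0.013) and day 18 (-0.41, adjusted p = 0.039). The first was lost without DOX replicate 1 or UT replicate 2 (-0.41 to -0.32), the other without DOX replicate 1, UT replicate 1 or UT replicate 2 (-0.42 to -0.24), without a filter and with only the groups compared (adjusted p = 0.071 and 0.070). The averaged fall of -0.17 (SE 0.07, adjusted p = 0.037) was the least stable of the 9 averaged calls, lost in 18 of 29 alternatives. Its sign turned in 2 more, library totals alone (0.36) and days 12 and 14 alone (0.11). Both courses of TDG rose, UT day 20 over UT day 10 by 0.74 (adjusted p = 0.00030) and DOX day 20 over DOX day 12 by 0.59 (adjusted p = 0.0023). Both turned with library totals alone (-1.45 and -0.60). The UT libraries of days 16 to 20, at 86.4 to 106 CPM, had mitochondrial shares of 53.5% to 72.9%, and DOX day 20 had 84.1 and 85.3 CPM at 55.3% and 58.8%. The part of that share in the TDG levels was not tested. TDG group means were highest on UT day 18 and lowest on UT day 12 (1.94-fold apart). In that order, TDG libraries overlapped in 8 of 10 neighbouring pairs. Gaps for TDG stood between UT day 16 and DOX day 20 and between DOX day 20 and DOX day 18. The pseudogene TDGP1 held 5.31 estimated counts over all libraries.

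IDH1, the cytosolic isocitrate dehydrogenase (ENSG00000138413.14, chromosome 2, 208236227 to 208266074, minus strand), had 78.6 and 73.4 CPM on day 12, 97.5 and 88.3 on day 14, 96.6 and 103 on day 16, 79.7 and 70.8 on day 18 and 68.5 and 70.0 on day 20 in DOX libraries. UT libraries had IDH1 at 72.2 and 76.1 CPM on day 10, 79.3 and 84.2 on day 12, 86.6 and 111 on day 14, 78.0 and 67.5 on day 16, 55.5 and 64.7 on day 18 and 52.9 and 55.3 on day 20. It was lower in DOX on day 12, overlapped on day 14, and was higher without overlap on days 16, 18 and 20. DOX peaked on day 16 and UT on day 14. The averaged rise was 0.19 (SE 0.06, adjusted p = 0.010), and it turned to -0.10 on days 12 and 14 alone. Day 16 was called (log2 fold change 0.45, SE 0.13, adjusted p = 0.0088), though not without DOX replicate 2 or UT replicate 2 (0.37 to 0.42). UT day 20 was lower than UT day 10 (-0.45, adjusted p = 0.0057; adjusted p = 0.052 with a filter of 1 CPM in 4 libraries), and DOX day 20 against DOX day 12 was not called (-0.13, adjusted p = 0.39). IDH1 group means were highest on DOX day 16 and lowest on UT day 20 (1.84-fold apart). In that order, IDH1 libraries overlapped in 6 of 10 neighbouring pairs. Gaps for IDH1 stood between DOX day 14 and UT day 12, UT day 12 and DOX day 12, DOX day 20 and UT day 18 and between UT day 18 and UT day 20. The antisense gene IDH1-AS1 shares 94 exonic bases with IDH1 and held 462 counts over all libraries against 77857. The strand setting of the counting is not given, so reads of the pair cannot be told apart there.

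IDH2, the mitochondrial isocitrate dehydrogenase encoded in the nucleus (ENSG00000182054.10, chromosome 15, 90083045 to 90102504, minus strand), had 120.2 and 123 CPM on day 12, 139.8 and 134 on day 14, 135 and 134 on day 16, 101 and 97.7 on day 18 and 87.9 and 77.1 on day 20 in DOX libraries. UT libraries had IDH2 at 140.2 and 134 CPM on day 10, 104 and 109 on day 12, 130.5 and 115 on day 14, 109 and 102 on day 16, 112 and 104 on day 18 and 101 and 108 on day 20. DOX was higher without overlap on days 12, 14 and 16 and lower without overlap on days 18 and 20, so that the average was close to 0 (0.05). Day 16 was called higher (log2 fold change 0.36, SE 0.11, adjusted p = 0.012) and day 20 lower (log2 fold change -0.34, SE 0.11, adjusted p = 0.024). The change of the IDH2 difference from day 12 to day 20 was called too (-0.54, adjusted p = 0.031). The IDH2 call of day 16 was lost without DOX replicate 1 or UT replicate 2 (0.32 to 0.37), that of day 20 without DOX replicate 2 or UT replicate 2 (-0.29 to -0.24). Both were lost with only the groups compared (adjusted p = 0.057 and 0.24), and that of day 20 without a filter (0.19). Under library totals alone, IDH2 on day 20 turned to 0.59 and the change to 0.45. DOX day 20 was 1.48-fold lower than DOX day 12 (-0.56, adjusted p = 0.00018), and UT day 20 was lower than UT day 10 (-0.39, adjusted p = 0.0035; adjusted p = 0.0503 with a filter of 1 CPM in 4 libraries and 0.058 with only the groups compared). IDH2 group means were highest on UT day 10 and lowest on DOX day 20 (1.66-fold apart). In that order, IDH2 libraries overlapped in 6 of 10 neighbouring pairs. Gaps for IDH2 stood between DOX day 16 and UT day 14, DOX day 12 and UT day 18, UT day 20 and DOX day 18 and between DOX day 18 and DOX day 20.

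Over the DOX course, from day 12 to day 20, 6 members fell and 1 rose, against 56.4% of all genes (29.7% lower and 26.7% higher). Over the UT course, from day 10 to day 20, 6 fell and 2 rose, against 62.3% (34.2% lower and 28.1% higher). Median log2 fold changes of the 10 genes were -0.64 for DOX day 20 over DOX day 12 and -0.49 for UT day 20 over UT day 10, against -0.08 and -0.24 over all genes. The courses span different days and were not compared. With library totals alone all 10 genes were called lower in both courses, and the median over all genes then stood at -1.26 in DOX and -2.41 in UT.

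Ratios of 2 members' counts within a library do not depend on how libraries are scaled. They were taken for 5 pairs of enzymes with related roles, chosen with the values above known, and compared by exact two-sided permutation of the arms within days (7776 arrangements). TET1 and TET3 had been called higher and TET2 lower in these same libraries. The p-values therefore describe the ratios and are no separate support for the calls above, and their adjustment covers only these 5 pairs. The ratio of TET1 to TET2 was 0.156 and 0.163 on day 12, 0.218 and 0.254 on day 14, 0.118 and 0.189 on day 16, 0.0884 and 0.124 on day 18 and 0.115 and 0.131 on day 20 in DOX libraries. UT libraries had TET1 to TET2 at 0.0434 and 0.0624 on day 12, 0.0256 and 0.0321 on day 14, 0.0167 and 0.0691 on day 16, 0.0328 and 0.0205 on day 18 and 0.0987 and 0.0924 on day 20. On UT day 10, which was outside the permutation, this ratio was 0.0908 and 0.111. DOX was higher on all 5 days, 1.83 on the log2 scale on average (exact permutation p = 0.00026, adjusted over the 5 ratios p = 0.0013, with 0.00026 the smallest p these arrangements allow). TET3 to TET2 stood at 2.34 and 2.22 on day 12, 2.04 and 2.17 on day 14, 2.32 and 3.0 on day 16, 1.72 and 2.25 on day 18 and 1.39 and 0.715 on day 20 in DOX libraries. UT libraries had TET3 to TET2 at 1.57 and 1.73 on day 12, 1.27 and 1.44 on day 14, 0.890 and 0.917 on day 16, 0.555 and 0.488 on day 18 and 0.919 and 0.821 on day 20. UT day 10, again outside the permutation, had TET3 to TET2 at 2.44 and 2.41, above both DOX libraries of day 12. Group means were again higher in DOX on all 5 days, by 0.95 on the log2 scale (exact permutation p = 0.0010, adjusted over the 5 ratios p = 0.0026), although the libraries overlapped on day 20.

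The ratio of DNMT3B to DNMT3A was 1.07 and 0.985 on day 12, 1.13 and 1.11 on day 14, 1.06 and 1.06 on day 16, 1.06 and 1.2 on day 18 and 1.00 and 1.02 on day 20 in DOX libraries. UT libraries had DNMT3B to DNMT3A at 1.08 and 1.01 on day 12, 0.956 and 0.872 on day 14, 1.04 and 0.978 on day 16, 0.645 and 0.680 on day 18 and 0.449 and 0.443 on day 20. On UT day 10, outside the permutation, DNMT3B to DNMT3A was 1.24 and 1.30, above every DOX library. DOX stayed near 1 throughout and UT was lowest on days 18 and 20, with DOX higher on 4 of 5 days by group means and 0.46 higher on the log2 scale on average (exact permutation p = 0.0036, adjusted over the 5 ratios p = 0.0060). UHRF1 to DNMT1 was higher in DOX on 3 of 5 days (0.78, exact permutation p = 0.045, adjusted over the 5 ratios p = 0.056), and the unadjusted p passed 0.05 when any of 13 of the 20 libraries was left out (differences 0.65 to 0.86). IDH1 to IDH2 differed by 0.14 (exact permutation p = 0.25, adjusted over the 5 ratios p = 0.25), with DOX higher on 3 of 5 days. Leaving out each of the 20 libraries in turn gave 1.63 to 2.04 for TET1 to TET2, 0.86 to 1.05 for TET3 to TET2 and 0.44 to 0.48 for DNMT3B to DNMT3A.

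**Figure D4:**
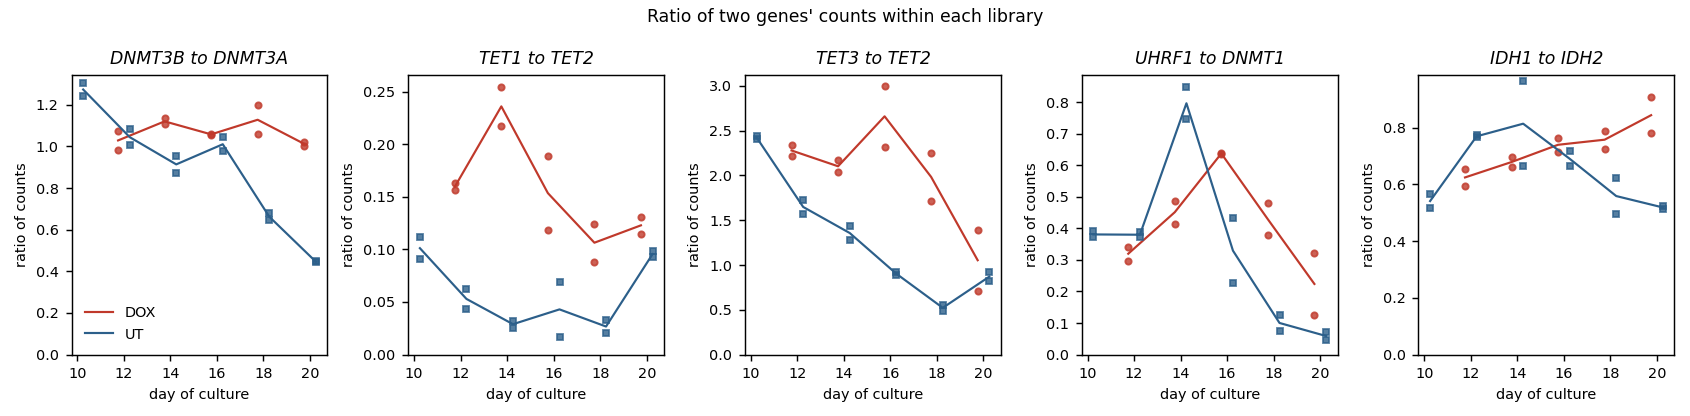
Ratio of the counts of 2 genes within a library (y axes, linear, from 0) against day of culture for 5 pairs, with each point a library, DOX in red circles, UT in blue squares, and lines joining group means. TET1 to TET2 and TET3 to TET2 have higher DOX means on each shared day, and DNMT3B to DNMT3A stays near 1 in DOX while UT is near 0.45 on day 20.

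Other genes of the pathway came from 6 lists written by hand and are described by counts and medians in the averaged comparison, where 52.9% of all genes were called and the median over all genes was 0.08. Of 12 genes for partners of maintenance and de novo methylation, 9 were tested, 6 rose and 1 fell (median log2 fold change 0.32). CDCA7, which with HELLS opens nucleosomal DNA to methylation, rose (0.96, SE 0.08, adjusted p = 9.3e-09), as did its relative CDCA7L (0.65, SE 0.08) and TRIM28, the co-repressor that guards methylation at imprints and retroelements (0.41, SE 0.06). The remodeller HELLS fell (-0.58, SE 0.12, adjusted p = 0.00057). Of 8 genes for methyl-CpG readers and their relatives 2 rose and 3 fell (median 0.11). ZBTB33, known as Kaiso, rose (0.72, SE 0.08), and MBD3, a relative in the NuRD complex, fell (-0.35, SE 0.07). Of 8 partners of the TET enzymes 5 were tested and 1 was called, OGT, the O-GlcNAc transferase that binds TET2 and TET3 (0.36, SE 0.06, adjusted p = 7.2e-05; median 0.07).

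Base excision repair completes demethylation after TDG, and of its 14 genes 13 were tested, 7 rose and 3 fell (median 0.22). The endonuclease APEX1, which acts on the abasic site, rose (0.85, SE 0.05, adjusted p = 3.0e-10), as did PARP1 (0.61, SE 0.07), while the stress genes GADD45B (-1.21, SE 0.09) and GADD45G (-1.21, SE 0.16) fell. The methyl donor cycle, which makes S-adenosylmethionine and recycles its product, had 9 of 12 genes called higher and no gene lower (median 0.52; no gene had a negative fold change with an unadjusted p under 0.05, DESeq2 also called 9 higher and 0 lower, and a filter of 1 CPM in 4 libraries gave 9 higher and 1 lower). MAT2A, which makes S-adenosylmethionine, rose (0.82, SE 0.09, adjusted p = 3.7e-07), with the salvage enzyme MTAP (0.93, SE 0.05) and methionine synthase MTR (0.89, SE 0.06). Of 14 genes that make or use 2-oxoglutarate or hold its competitors in check, 11 rose and 2 fell (median 0.39). The rises were led by FH (0.97, SE 0.06, adjusted p = 2.1e-10) and SDHB (0.67, SE 0.07), enzymes that clear fumarate and succinate, both inhibitors of TET enzymes, with GOT1 (0.50, SE 0.07) and GLUD1 (0.48, SE 0.06).

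On days 12 and 14 alone, 9 of the 12 donor cycle genes and 8 of the 14 2-oxoglutarate genes were called, all higher, with medians of 0.49 and 0.35. On those days 7 of 13 base excision repair genes were called, 4 higher and 3 lower (median 0.00). Over all genes 25.1% were called on those days, with a median of 0.01. With library totals alone the donor cycle and 2-oxoglutarate lists had all 12 and all 14 genes called higher (medians 1.06 and 0.92), beside a median of 0.60 over all genes.

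**Figure D5:**
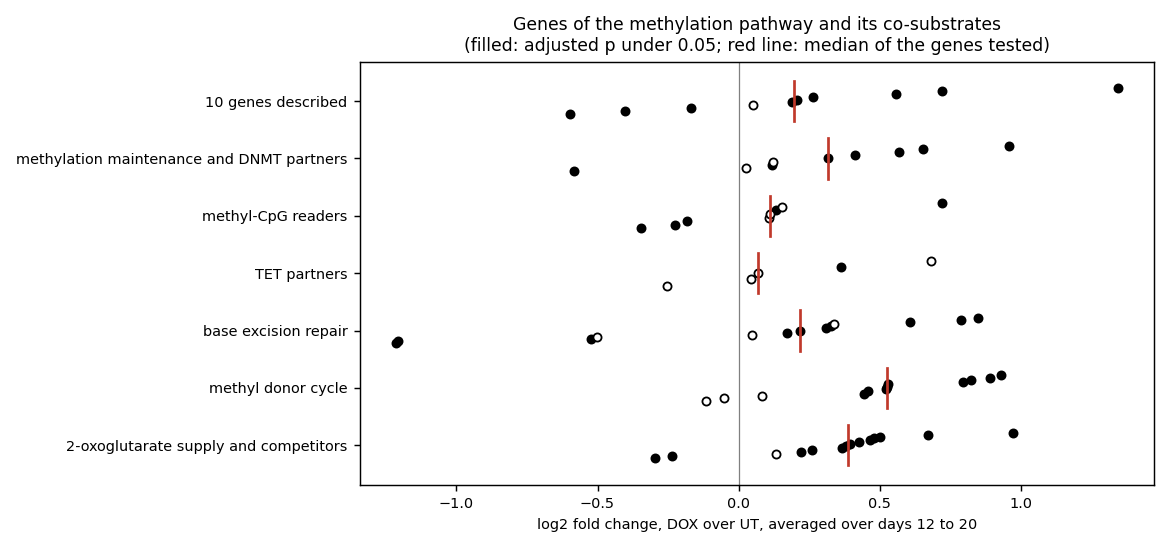
Log2 fold change of DOX over UT averaged over days 12 to 20 (x axis) for the 10 genes and the tested genes of 6 lists (y axis), with a point per gene, filled where the adjusted p is under 0.05, and a red line at each median. The medians are 0.20 for the 10 genes, 0.52 for the methyl donor cycle and 0.39 for 2-oxoglutarate supply and competitors.

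Genes whose profile was most like a member's were taken as the 3 with the highest Pearson correlation of log2 CPM over the 11 group means, among 11140 genes. Over the 22 single libraries 10 of the 30 genes named were again among the 3 highest, so the names depend on that choice. They are given as a description without a test, since the points share libraries, arms and days. For TET3 they were ANGPT1 (0.995), MIDEAS (0.995) and FOXN2 (0.994), and for DNMT1 BAZ1B (0.984), ASPH (0.977) and APPL1 (0.975). DNMT3A was nearest to MYNN (0.981), MARVELD1 (0.980) and OSBPL6 (0.978), and DNMT3B to QRICH1 (0.975), ZNF418 (0.972) and PLEKHH1 (0.970). TDG was nearest to ARAF (0.980), ARHGDIA (0.980) and WDR55 (0.975), and UHRF1 to POGLUT3 (0.978), HSD17B4 (0.959) and EXO1 (0.950). IDH1 was nearest to EMC7 (0.976), MRPS18C (0.976) and ATP5PB (0.971). Likeness was weaker for TET2, with MBP (0.961), GRK3 (0.951) and GNPTAB (0.947), and for TET1, with MLLT10 (0.949), TYW3 (0.944) and PEX6 (0.934). It was weaker also for IDH2, with TACO1 (0.947), COMMD2 (0.941) and CALM3 (0.940). A correlation over 0.9 was shared by 2024 genes with TET3 and by 1302 with DNMT3A, but by 7 with IDH2, 13 with TET1 and 21 with TET2. Over the 22 single libraries the same genes gave 0.960 to 0.983 for TET3, 0.953 to 0.982 for DNMT1 and 0.726 to 0.884 for TET1.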

How the data were processed

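RNA-seq of polyadenylated RNA was deposited for 22 libraries as 1 table of estimated counts per gene, made by the authors with Trim Galore 0.6.5, STAR and Salmon on hg38, per the submitters' processing notes. Which annotation and strand setting were used, and which versions of STAR and Salmon, are not given in the sources used here. Of the values 88.3% were whole, and the estimated counts were rounded. Estimated counts share reads of similar genes by a model, so overlapping genes and pseudogenes were counted beside the members.

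Genes were kept by filterByExpr (minimum count 10), and edgeR 4.0.16 (R 4.3.3, limma 3.58.1) fitted 11 group means with TMM scaling and quasi-likelihood tests on 11 residual degrees of freedom. P-values were adjusted by Benjamini-Hochberg over 20115 genes, with a threshold of 0.05. SE is the absolute log2 fold change divided by the root of the F statistic. Ratios were tested by exact permutation. The fit was also run on simulated data in which few genes changed, unlike these data, and no result here rests on it. DESeq2 1.42.0, other scalings, filters, sets of groups, a replicate term and leaving out each library were tried. Figures used Python 3.11.15, pandas 2.3.3 and matplotlib 3.10.9.

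Exon lengths and gene positions came from GENCODE 29 and promoters from RefSeq. Named genes were the 10 members, up to 3 called genes of largest change and the gene of most counts per list, and the 3 most alike profiles per member. One gene that this rule names is not reported here. The members and lists were chosen with earlier results of these data known. The ratios, and the alternatives for the lists, were chosen after seeing the data. Replicate libraries differed by more than sampling noise, so none was counted as a repeat of another.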

Additional observations from a re-analysis of the deposited data

Results flagged for a closer look

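The difference between DOX and UT was itself tested for change over time, and 9 results were called. From day 12 to day 20 the log2 difference moved by -1.40 for DNMT1 (adjusted p = 0.042), by 0.94 for DNMT3B (adjusted p = 0.0018), by 0.67 for UHRF1 (adjusted p = 0.046) and by -0.54 for IDH2 (adjusted p = 0.031), all from edgeR. DNMT3B kept its call in all 16 alternatives. The call was lost for DNMT1 without DOX day 12 replicate 1, DOX day 12 replicate 2, DOX day 20 replicate 1, UT day 12 replicate 1, UT day 12 replicate 2 or UT day 20 replicate 2 (-1.42 to -0.96). For UHRF1 it was lost without DOX day 12 replicate 1, DOX day 12 replicate 2, DOX day 20 replicate 1, UT day 12 replicate 1, UT day 12 replicate 2, UT day 20 replicate 1 or UT day 20 replicate 2 (0.42 to 0.79), and for IDH2 without DOX day 12 replicate 1, DOX day 12 replicate 2, DOX day 20 replicate 2, UT day 12 replicate 1, UT day 12 replicate 2 or UT day 20 replicate 2 (-0.57 to -0.44). The DNMT1 change was also not called with library totals alone (-0.44, adjusted p = 0.37) or without UT day 10 in the fit (adjusted p = 0.055). The UHRF1 change was not called with DESeq2 size factors, without a filter or without UT day 10 (adjusted p = 0.061, 0.071 and 0.063). The IDH2 change was not called without a filter (adjusted p = 0.16), and turned in sign with library totals alone (0.45).

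A test of any change among the 5 days gave adjusted p-values of 0.014 for TET1, 0.00035 for DNMT1, 0.00079 for DNMT3B, 0.044 for IDH1 and 0.0095 for IDH2. The size on each day is given with each gene above. The IDH1 call was lost without any 1 of 14 libraries, without a filter (adjusted p = 0.077) and without UT day 10 (adjusted p = 0.063). The TET1 call was lost without UT day 14 replicate 1 (adjusted p = 0.056) or DOX day 14 replicate 2 (adjusted p = 0.071). Mitochondrial shares of DOX and UT also drew apart after day 14, with group means of 20.2% in DOX and 54.7% in UT on day 16, and their part in these changes was not tested.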

How the results depend on the processing

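Over the alternatives that left no library out, 708 member values kept direction and side of the threshold, 35 lost a call, 37 gained one and 30 turned in sign. Of those that turned, 19 did so with library totals alone: TET2 in the average (0.13) and on days 16, 18 and 20 (0.52, 0.034 and 0.64), TDG in the average (0.36), on days 16, 18 and 20 (0.44, 0.51 and 0.74), in the UT course (-1.45), the DOX course (-0.60) and the change from day 12 to day 20 (0.69), IDH2 on days 18 and 20 and in that change (0.80, 0.59 and 0.45), DNMT3A on day 20 and in that change (0.92 and 0.73), TET3 in that change (0.91) and DNMT1 in the UT and DOX courses (-0.82 and -0.76). On days 12 and 14 alone DNMT1 (0.57), TDG (0.11) and IDH1 (-0.10) turned. Values near 0 turned for TET3 on day 20 with DESeq2 size factors (-0.071), 1 CPM in 4 libraries (-0.052), only the groups compared (-0.026) and DESeq2 (-0.077), for DNMT3A on day 20 without mitochondrial genes (0.010) or without a filter (0.022), and for IDH2 in the average with 1 CPM in 4 libraries (-0.0060). The cause was not tested.

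Counts moved by more than 1.5 times as follows. With library totals alone, genes called were 11446 on day 18, 11094 on day 20, 9541 for the change from day 12 to day 20 and 12049 for any change, and members 8 on day 20 and 9 for any change. Without a filter, 940 genes were called on day 12 and 2 members for the change from day 12 to day 20. With only the groups compared, genes called were 4742, 4780 and 2035 on days 12, 18 and 20, and members 3, 5 and 2 on days 12, 16 and 20. Leaving UT day 10 out gave 2 members for the change from day 12 to day 20, and days 12 and 14 alone gave 5039 genes and 3 members. DESeq2 called 1408 genes and 1 member on day 12 and 2758 genes for the change from day 12 to day 20.

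Leaving out each library in turn left single libraries in a group, which were assumed to vary like the others. Genes called ran over 9939 to 10817 for the average, 56 to 217 for day 12, 2824 to 4156 for day 14, 5605 to 6657 for day 16, 5220 to 6344 for day 18, 3522 to 5392 for day 20, 10812 to 11471 for the UT course, 9129 to 10160 for the DOX course, 912 to 2372 for the change from day 12 to day 20 and 4699 to 7122 for any change among days. Members called ran over 8 to 9 for the average, 0 to 0 for day 12, 2 to 4 for day 14, 2 to 6 for day 16, 3 to 5 for day 18, 2 to 3 for day 20, 8 to 9 for the UT course, 6 to 8 for the DOX course, 1 to 3 for the change from day 12 to day 20 and 3 to 6 for any change among days. Signs turned within these ranges for TET2 on day 14 (-0.15 to 0.066), day 20 (-0.48 to 0.0082) and in the change (-0.12 to 0.37), TET3 on day 20 (-0.56 to 0.42) and in the change (-0.66 to 0.32), TET1 on day 20 (-0.17 to 0.42), DNMT3A on day 20 (-0.091 to 0.095), TDG on day 14 (-0.067 to 0.36), IDH1 on day 14 (-0.25 to 0.11), UHRF1 on day 12 (-0.23 to 0.0031) and DNMT1 in the DOX course (-0.077 to 0.81).

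The groups share replicate numbers 1 and 2. Deviations of same-numbered libraries had correlations of -0.066 to 0.42 over the 55 pairs of groups (median 0.088, 24 pairs over 0.1). The labels give no pairing, so the main tests took none, and a replicate block was run as an alternative. More genes were called with the block in every comparison. With the replicate block, genes called were 10885 for the average, 950 for day 12, 6056 for day 14, 8392 for day 16, 7653 for day 18, 6082 for day 20, 12673 for the UT course, 11599 for the DOX course, 2418 for the change from day 12 to day 20 and 7275 for any change among days, and members 9 for the average, 0 for day 12, 5 for day 14, 8 for day 16, 6 for day 18, 5 for day 20, 9 for the UT course, 7 for the DOX course, 4 for the change from day 12 to day 20 and 7 for any change among days. TET3 on day 20 stood at -0.00084 with the block. The block added calls for TET3 on day 14 (adjusted p = 0.027) and for any change (0.016), IDH1 on day 20 (0.045), TET2 in the UT course (0.044) and TDG for any change (0.012).

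Depth limits TET1, with 7 to 421 counts a library, more than the other 9 genes. With 2 libraries a group, single-day calls rest on the spread pooled over 11 groups.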
